A study of Homo sapiens with 2 samples.

Results

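Brachyury, the protein that TBXT encodes, is a T-box transcription factor best known for posterior mesoderm and notochord formation, and it is studied in carcinomas as a driver of epithelial-mesenchymal transition. In this transition, cells lose epithelial adhesion and gain motility. Transcription factors of the SNAI, TWIST and ZEB families bind E-box sequences and repress CDH1, the gene of E-cadherin, while CDH2 (N-cadherin), VIM (vimentin) and FN1 (fibronectin) mark the mesenchymal state. Brachyury peaks were therefore examined around TBXT and 9 genes of epithelial-mesenchymal transition.

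The study compared 1 chromatin immunoprecipitation (ChIP) library with 1 input library from wild-type cells of the breast cancer line MDA-MB-231, which is mesenchymal in appearance, and the methods name an antibody against brachyury. The label of the first library names no antibody and that of the input states none. Neither library had a replicate, and the depth of both is unknown. A peak counted for a gene when its midpoint lay within 100 kb of the gene body in build hg19. By this rule 9 of the 10342 peaks in the list belonged to the 10 genes, and position alone chose them. A list of peaks shows where reads were enriched over input and not how strongly a gene is expressed.

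Peaks lay near TBXT, TWIST1, ZEB1, CDH1 and FN1, while no peak lay within 100 kb of SNAI1, SNAI2, ZEB2, CDH2 or VIM. ZEB1 had 3 peaks, TBXT and FN1 had 2 each, and TWIST1 and CDH1 had 1 each. The gene windows covered 2.78 Mb, in which the peak densities of their chromosomes would place 10.1 peaks. The 9 observed peaks were 0.89 times that number (exact Poisson 95% interval 0.407 to 1.69, counting error only). Across the genome, 59.4% of 9728 windows of 300 kb held at least 1 peak. Windows of each gene's own length on its own chromosome held a peak in 38.7% (chromosome 7, TWIST1) to 80.1% of positions (chromosome 10, ZEB1), which adds up to 5.73 genes with a peak where 5 had one. The number of genes with a peak was thus close to the background.

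**Figure D1:**
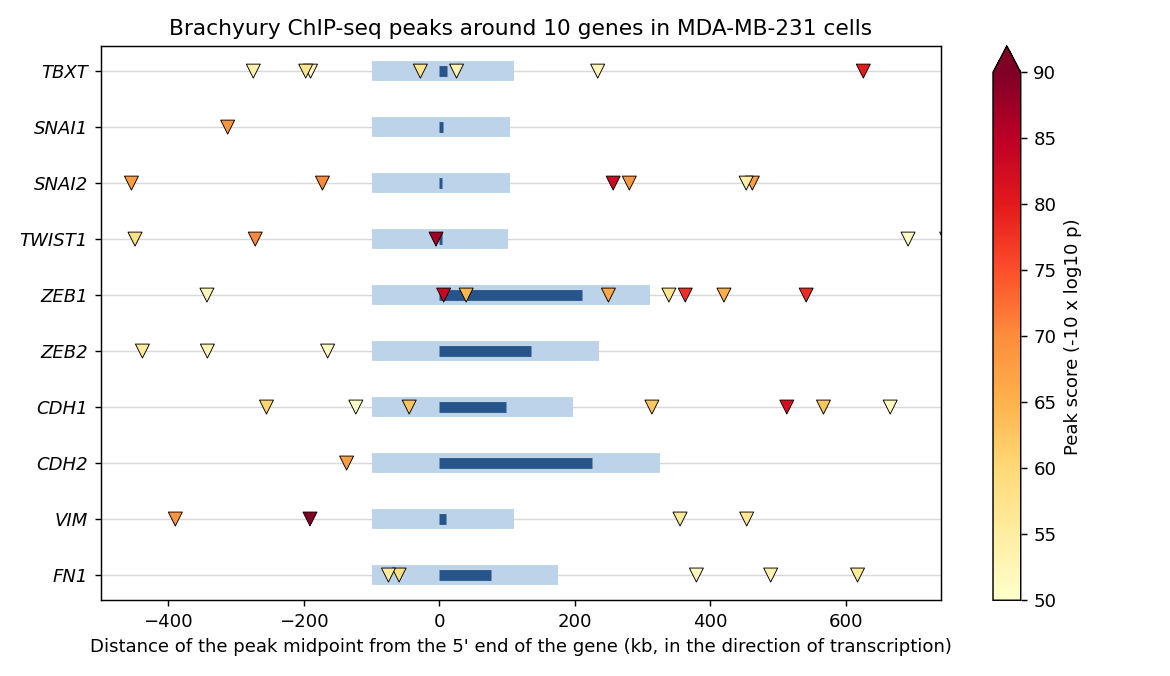
Peaks around the 10 genes, by distance in kb of the peak midpoint from the 5′ end of each gene in the direction of transcription. Dark bars are gene bodies (drawn at least 4 kb long), light bars the bodies with 100 kb on either side, and triangles peaks coloured by score. The peaks closest to a 5′ end are those of TWIST1 and ZEB1, and the light bars of SNAI1, SNAI2, ZEB2, CDH2 and VIM are empty.

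TBXT, the gene of the immunoprecipitated factor itself, lies at chr6:166571000-166582000 on the minus strand. Its body, 11 kb long, held no peak. The first of its peaks, at chr6:166609392-166610363, lay 27.9 kb upstream of the 5′ end, on the side of PRR18, the next protein-coding gene in RefSeq. It was 972 bp wide and scored 57.08 on the scale of the caller, -10 x log10 of the p-value, on which the list starts at 50. The second, at chr6:166555974-166556922, lay 14.6 kb beyond the 3′ end and scored 53.1. Both scores were under the list median of 58.8, and 78.8% of all peaks scored at least as high as the weaker of them. The 2 peaks compare with 1.03 expected from 4.90 peaks per Mb on chromosome 6 (exact two-sided binomial test, p = 0.277), and 27.2% of windows of this length on the chromosome held at least 2. Peaks were also within 250 kb on both sides, where 5 were counted against 2.50 expected (exact binomial p = 0.109). Within 1 Mb there were 12 against 9.86, of which 5 reached the list median score.

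TWIST1, which encodes a basic helix-loop-helix factor of mesoderm and neural crest, had the peak nearest to the 5′ end of any of the 10 genes. The gene lies at chr7:19155000-19157000 on the minus strand, and the peak at chr7:19161119-19162404 was centred 4.76 kb upstream of its 5′ end. It scored 87.14, the highest value among the 9 peaks, and ranked 683 of 10342, with 6.60% of the list at or above it. Its width was 1286 bp, against a median of 960 bp in the list. Of intervals as long as TWIST1 along chromosome 7, 2.86% were at least as near to a peak, and the median distance was 145 kb. This was the smallest of 10 such shares and was singled out after the values were seen. The count itself, 1 peak against 0.508 expected, did not pass the test against the chromosome (exact binomial p = 0.398). Around TWIST1 the list was denser than chromosome 7 as a whole, with 5.2 peaks per Mb within 5 Mb on either side of the window (95% interval 3.88 to 6.82) and 2.51 per Mb on the chromosome (2.27 to 2.77). At that local density 1.05 peaks would be expected. The share of 2.86% was taken along the whole chromosome and was not computed for this denser stretch. The next peak, 272 kb upstream, scored 70.17.

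ZEB1, a zinc finger and homeodomain repressor of CDH1, was the only gene of the 10 with peaks inside its body, which runs from 31608000 to 31819000 on the plus strand of chromosome 10. The first, at chr10:31613627-31615458, was centred 6.54 kb into the gene from its 5′ end. It scored 83.45 (8.83% of the list at or above) and was 1832 bp wide, the widest of the 9 (2.38% of the list at least as wide). The second, at chr10:31647390-31648074, lay 39.7 kb into the gene, scored 64.4 and, with 685 bp, was the narrowest. The third, at chr10:31857008-31858536, lay 38.8 kb beyond the 3′ end and scored 66.27. All 3 scores were above the list median. Whether they lay in exons or introns was not analysed here. The 3 peaks compare with 1.86 expected (exact binomial p = 0.441), and 28.4% of windows of this length on chromosome 10 held as many. Inside a body of 211.0 kb, 0.954 peaks were expected, and 59.1% of intervals of that length on chromosome 10 held at least 1. Further peaks followed beyond the 3′ end, at 128 kb (score 57.4), 152 kb (77.79) and 209 kb (65.7), so that 6 peaks lay within 250 kb against 3.22 expected (exact binomial p = 0.146). Of the 12 peaks within 1 Mb, 9 reached the list median score.

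Promoter sequences of the genes were searched for T-box and E-box motifs. The RefSeq promoter table (GRCh38.p14, 250 bases before to 50 after each start) held 14 promoters of 6 of the 10 genes, namely TBXT, ZEB1, ZEB2, CDH2, VIM and FN1. The T-box half-site AGGTGTGA, searched on both strands, was in none of these and in 0.98% of all 35116 promoters. The shorter AGGTGTG, a motif chosen after that result, was in 1 of the 14, a promoter of ZEB1, and in 4.59% of all. The E-box CAGGTG was in 2 of the 14, both of ZEB1, at 4 places and in 20.6% of all. The half-site and the E-box share the letters AGGTG, so that the first stretch below holds both AGGTGTG and, overlapping it, the E-box. The stretches are from chr10:31318966-31318994 and chr10:31318349-31318377 of GRCh38.p14, plus strand, with capitals for AGGTGTG read on the other strand in the first and for the E-box in the second. They are shown as the matches found, and they do not set ZEB1 apart, since ZEB1 supplied 7 of the 14 promoters searched, the other 5 genes had 1 or 2 each, and 4 genes had none in the table. Their coordinates cannot be set beside those of the hg19 peaks, and a match is not evidence of binding.
ZEB1 promoter with the shortened half-site: ccccacCACACCTgaggaaaacttttccc
ZEB1 promoter with the E-box: cgaggtgacagCAGGTGagggccgggtgc

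CDH1 lies at chr16:68771000-68869000 on the plus strand. Its single peak, at chr16:68726148-68727157, was centred 44.3 kb upstream of the 5′ end, on the side of CDH3, the P-cadherin gene that is its RefSeq neighbour. Neighbours were taken by name only, so whether this peak lay between the genes or inside CDH3 was not analysed. The peak was 1010 bp wide and scored 62.92 (35.9% of the list at or above). A count of 1 was close to the 1.04 expected (exact binomial p = 1). The nearest of the peaks outside the limit of 100 kb, at 123 kb upstream, had the lowest score that the list admits, 50. The region around CDH1 was rich in peaks, with 6.30 per Mb within 5 Mb on either side (95% interval 4.84 to 8.06) and 3.50 per Mb on chromosome 16 (3.12 to 3.92). At the local density 1.88 peaks would be expected in place of 1.04.

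FN1, the gene of a major matrix glycoprotein, lies at chr2:216225000-216301000 on the minus strand, and both of its peaks were upstream, on the side of MREG. The peak at chr2:216359819-216360675 was 59.2 kb from the 5′ end, 857 bp wide and scored 58.37. The peak at chr2:216375533-216376440 was 75 kb away, the farthest of the 9, 908 bp wide and scored 55.37. The 2 peaks compare with 0.955 expected on chromosome 2 (exact binomial p = 0.248, the lowest of the 10 genes). Within 250 kb the count was still 2, against 1.99 expected. Within 1 Mb 7 peaks were counted against 7.18 expected, and none of these 7 reached the list median, their scores running from 51.64 to 58.37. The surroundings were sparse, with 2.0 peaks per Mb within 5 Mb on either side (95% interval 1.22 to 3.09) against 3.46 on the chromosome (3.23 to 3.70). At the local density 0.552 peaks would be expected in the window in place of 0.955. The 2 peaks did not pass a test against the local region, which there included the window itself (exact binomial p = 0.117).

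**Figure D2:**
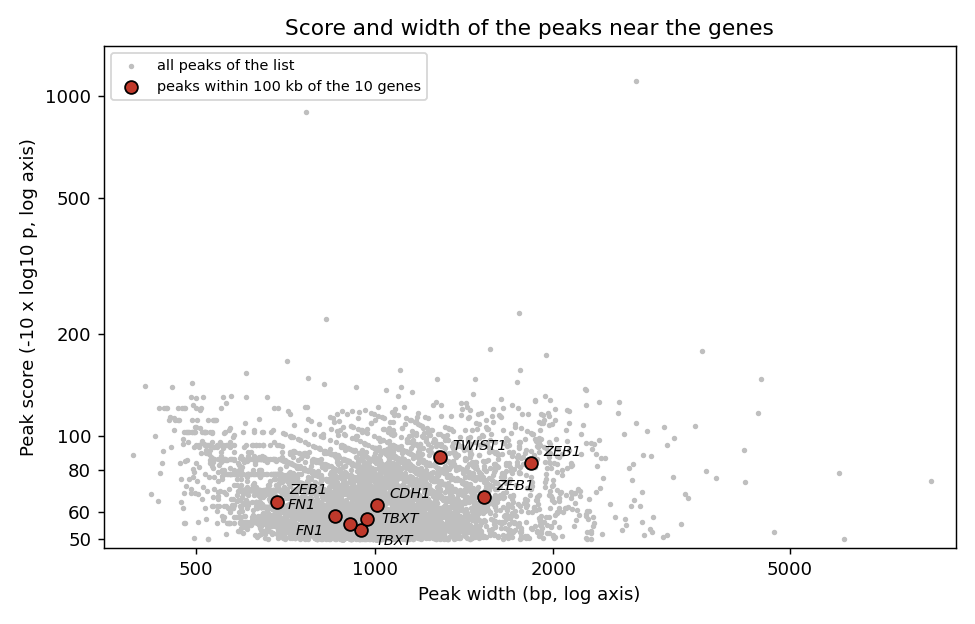
Score (-10 x log10 p, log axis) against width in bp (log axis) of all 10342 peaks in grey and of the 9 peaks near the genes in red, each named by its gene. TWIST1 and the first ZEB1 peak stand at scores of 87.14 and 83.45, and the TBXT and FN1 peaks lie between 53.1 and 58.37.

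In score and width the 9 peaks spread over the bulk of the list. Their median score was 62.9 against 58.8 in the list, and 5 of 9 reached the list median. The scores of 2, those of TWIST1 and the first ZEB1 peak, were above the upper quartile of 68.4, and 1, at TBXT, was under the lower quartile of 53.8. Median width was 972 bp against 960 bp, with a range from 685 to 1832 bp. The 2 highest scores belonged to the 2 peaks nearest to a 5′ end, a pattern noticed in the values and not tested. Relative to their genes, 5 peaks lay upstream of the 5′ end, 2 inside the body and 2 beyond the 3′ end. Inside the bodies, which sum to 0.779 Mb, 2.67 peaks were expected.

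The other genes had no peak within 100 kb, and the distance to the nearest one differed between them. SNAI1, a zinc finger repressor that acts early in the transition, lies at chr20:48600000-48605000, and its nearest peak was 312 kb upstream (score 69.03). On the other side the next peak was 805 kb away, so that the gene sat in an interval of 1123 kb without a peak. Intervals at least this long made up 10.6% of chromosome 20, where the median interval was 140 kb. Stretches where reads cannot be placed, such as the centromere, were not left out of that share. Within 1 Mb of SNAI1 there were 3 peaks against 7.99 expected (ratio 0.375, 95% interval 0.0774 to 1.10, exact binomial p = 0.0718). The density within 5 Mb on either side, 3.90 per Mb, was near the 3.99 of the chromosome. SNAI2, its paralogue, lies at chr8:49830000-49834000, with peaks 172 kb upstream (score 70.23) and 253 kb beyond the 3′ end (83.15). Here 11 peaks were found within 1 Mb against 8.29 expected, and 7 of them reached the list median score.

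ZEB2, the relative of ZEB1, lies at chr2:145142000-145278000 and was flanked unevenly. All 8 peaks within 1 Mb were on its upstream side, the nearest 165 kb from the 5′ end with a score of 51.4. Beyond the 3′ end the next peak was 1092 kb away. Intervals of 1393 kb, as here, or longer covered 10.9% of chromosome 2, again with no stretch left out. The count of 0 compares with 1.16 expected, the second highest of the 10 genes, and 36.2% of windows of this length on chromosome 2 held none.

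CDH2, with 226.0 kb the longest of the bodies, lies at chr18:25531000-25757000 on a chromosome with few peaks. Its nearest peaks were 137 kb upstream (score 68.05) and 673 kb beyond the 3′ end (55.04), and these were the only 2 within 1 Mb, against 4.92 expected (exact binomial p = 0.249). Chromosome 18 carried 2.21 peaks per Mb, and 48.4% of windows of this length held none. VIM, the intermediate filament gene at chr10:17270000-17280000, had its nearest peak 191 kb upstream. Whether that peak lay before, inside or past TRDMT1, the next protein-coding gene on that side in RefSeq, was not analysed. That peak scored 89.72 (5.49% of the list at or above), more than any of the 9 peaks inside the limit. Next to VIM on the 3′ side the first peak was 345 kb away (55.54), and 6 peaks lay within 1 Mb against 9.09 expected (exact binomial p = 0.401).

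**Figure D3:**
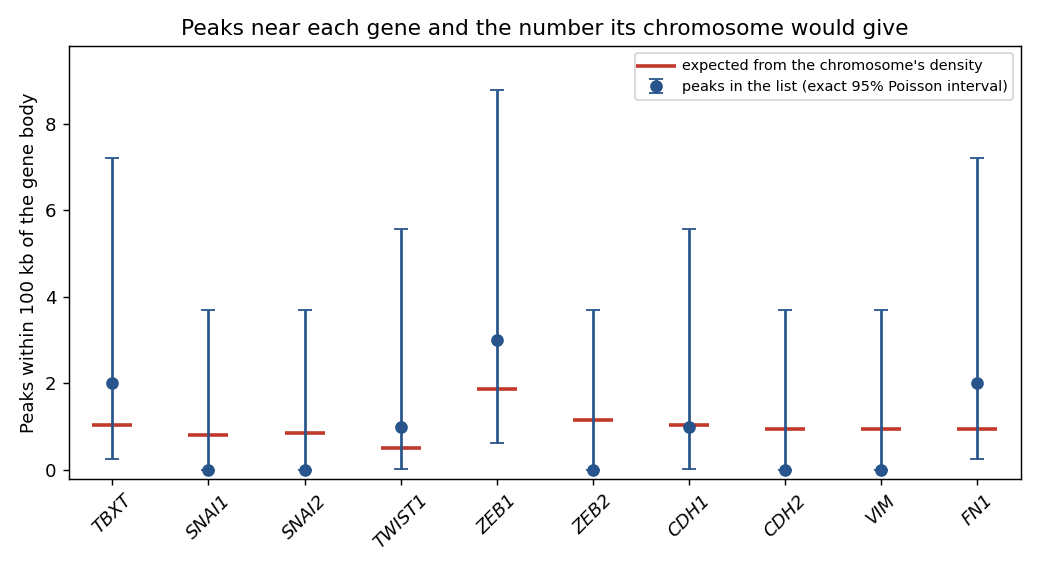
Number of peaks within 100 kb of each gene body (points, with exact Poisson 95% intervals) and the number expected from the density of the chromosome (red dashes). Each interval includes the expected number, from 0.508 at TWIST1 to 1.86 at ZEB1.

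Each gene was then tested against its chromosome. The exact two-sided binomial test was run over 9738 windows, the 10 gene windows and 9728 tiled windows of 300 kb, with Benjamini-Hochberg adjustment. No gene window was called (exact test, adjusted p = 1 for all 10), none had an unadjusted p under 0.05, and the called share of the tiled windows was 0%, with 3.87% at an unadjusted p under 0.05. With about 1 peak expected, the test could not have called a gene for having no peak: a count of 0 would have given an exact p of 0.273 at ZEB1 and more at every other gene. For an excess the test was also weak. Counts in the tiled windows reached 8, yet the lowest adjusted p of the exact test among them was 0.255. The upper limits still left room for several-fold differences, from 3.17 times the expected number at ZEB2 to 4.51 times at SNAI1 among the genes without a peak, and up to 11 times at TWIST1.

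By role, the 5 factor genes other than TBXT had 4 peaks against 5.19 expected, and the 4 genes CDH1, CDH2, VIM and FN1 had 3 against 3.89. The distance from the gene body to the nearest peak, with 0 for ZEB1, had a median of 98 kb over the 10 genes. For intervals of the same lengths on the same chromosomes the medians centred on 74 kb. Of the 10 genes, 4 (TBXT, TWIST1, CDH1 and FN1) were nearer to a peak than the median of their own chromosome. ZEB1 equalled its median, which was also 0, and the genes without a peak within 100 kb were farther than theirs. At other limits the counts also lay near those of the chromosomes, above at some and below at others. They were 7 peaks against 6.39 expected within 50 kb and 21 against 21.3 within 250 kb. Within 1 Mb there were 81 against 77.1 (ratio 1.05, 95% interval 0.834 to 1.31). No gene reached an exact p of 0.05 at any limit, the lowest being 0.0718 for SNAI1 within 1 Mb.

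**Figure D4:**
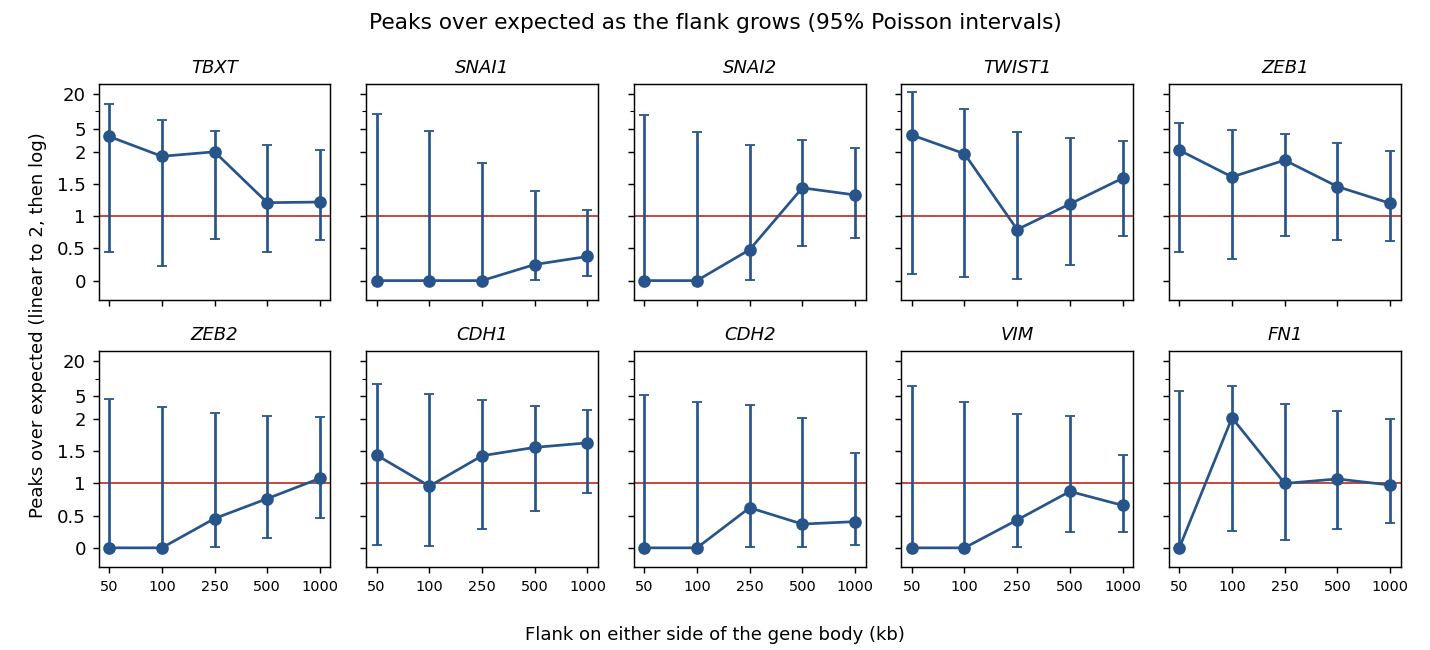
Peaks over the number expected from the chromosome (vertical axis, linear to 2 and logarithmic above) against the flank on either side of the gene body, 50 to 1000 kb, for each gene, with exact Poisson 95% intervals and a red line at 1. TBXT, TWIST1 and ZEB1 stand above 1 at 50 and 100 kb, SNAI1, CDH2 and VIM below 1 at each flank, and every interval includes 1.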

How the data were processed

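ChIP and input DNA of MDA-MB-231 cells were sequenced, 1 library each, and the authors deposited 1 list of MACS peaks (version not given in the sources used here) with a score per peak, taken to be the p-value as -10 x log10, since 50 is the lowest value. The submitters' processing notes name Bowtie2 2.1.0 and hg19. On their chromosomes, 42 peaks lay past the last RefSeq gene of GRCh38. No such count was made for hg19, so this number does not tell the builds apart. The design text of the series describes other samples and was not used. Members, gene lists and comparisons were chosen with earlier results of these data known. All 10 genes and all their peaks are named.

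Gene bodies in hg19 were known to 1 kb, so distances carry that rounding. Strands are general knowledge, checked in the 6 genes of the promoter table. RefSeq served for neighbours by name, not by position, and for promoters. An hg19 genome and annotation were not used here, so exons, peak sequences and further genes of the pathway were not analysed. Density is peaks per Mb of a chromosome, measured from its first peak to its last. Windows of the same length were placed every 10 kb. Tests were exact binomial, with Benjamini-Hochberg adjustment over 23 chromosomes' windows, a threshold of 0.05 and exact Poisson intervals at 95%. They cover counting error and treat peaks as independent. Other flanks, stricter scores, merged peaks, overlap in place of midpoint, and local density were tried. Python 3.11.15, numpy 2.4.6, scipy 1.17.1, pandas 2.3.3 and matplotlib 3.10.9 were used. The window test was tested on simulated lists of randomly placed peaks. Some windows there were given more added peaks than any 300 kb window of the real list held (8 at most). That setting does not show what the test can find at the counts near these genes.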

Additional observations from a re-analysis of the deposited data

How the results depend on the processing

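The ratio of peaks to expected peaks stayed within the interval of the main value under each of 9 alternatives (0.82 with the density within 5 Mb to 1.10 with a flank of 50 kb), and no gene window was called under any of them. The number of genes with a peak followed the flank by construction, with 9 at 250 kb, 10 at 500 kb and 10 at 1 Mb. Among peaks at or above the median score it was 3, since the peaks of TBXT and FN1 were left out. The genes that then had a peak were TWIST1, ZEB1 and CDH1. The median distance to the nearest peak rose from 98 to 182 kb. With fewer peaks such a distance can only stay or grow, and it was not set beside same-length intervals. The shortened motif, added after the data were seen, was in the promoters of 1 gene in place of 0. The absence of replicates and the unknown depth limit each score, and windows with about 1 expected peak cannot show a loss.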
